A study of Canis lupus familiaris with 33 samples.

Results

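The genes AQP1, AQP3, SLC14A1, SCNN1B, SCNN1G, TRPV1, TRPV4 and PIEZO1 encode channels for water, urea, sodium and other cations, with a force-gated channel of the cell membrane, all of them studied in the urothelium. They were taken by gene symbol from the deposited table of TMM-normalized expression, where all 8 members were found among 25096 genes. RNA-seq was performed on 29 treatment-naive, high-grade canine invasive urothelial carcinomas (iUC), 1 from each of 29 pet dogs and collected by cystoscopy per the labels, and on normal bladder mucosa from 4 dogs without bladder disease. The normal mucosa was dissected from bladders removed after euthanasia and is labelled as urothelial cells. All libraries were made after removal of ribosomal RNA and were sequenced as a single batch. The ages, breeds and sexes of single dogs were not used here. With tumors collected by cystoscopy and normals by dissection, disease and method of collection cannot be told apart.

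The urothelium lines the bladder and keeps urine, with its urea, acid and salt, from the tissue beneath. Aquaporins let water, and in the case of AQP3 also glycerol, cross the membrane along an osmotic gradient. The epithelial sodium channel (ENaC) takes up sodium at the apical membrane, and TRPV1, TRPV4 and PIEZO1 open in response to heat and irritants, to swelling and stretch, and to membrane tension. Channels of the last group are studied for their part in the sensing of bladder filling.

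Values are log2 of the normalized expression, with each gene set to a median of 0 across normals and tumors, so they compare samples within a gene and say nothing of which gene was expressed more. A tumor-normal difference is likewise on the log2 scale, with its standard error (SE). A gene was called higher or lower when it differed 2-fold or more with an adjusted p (limma, Benjamini-Hochberg) no higher than 0.05. No member sat at a shared lowest value in any sample, and all 8 were tested, among 24471 genes.

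Of the 8 members, 4 were higher in tumors and no member was lower. PIEZO1, TRPV4, SLC14A1 and SCNN1B rose by 1.65 to 2.08 on the log2 scale, while AQP3, SCNN1G, AQP1 and TRPV1 did not pass the test. The 4 of 8 called higher stand beside 10.7% of all genes tested called higher, and the 0 called lower beside 45.8%. The median change of all genes tested was -0.84. Restricted to genes whose median lay above the lowest value, that median was -0.01, 14.2% were higher and 30.4% lower. The DESeq-normalized table, in which the median of all genes was -1.11 and 5.62% were higher, gave the same number of members called. The 6 epithelial markers measured rose by a mean of 1.80 between the same samples, close to the rise of these 4 members.

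The first pair carries water. AQP1, the water channel of capillary endothelium and red cells, had values of 1.10, 0.09, 0.01 and 1.26 in normals A to D. In tumors it ran from -2.55 through a median of -0.19 to 2.33. The groups overlapped, with 7 tumors above every normal and 17 below every normal. The limma difference was -0.62 (SE 0.61, 95% interval -1.86 to 0.62, adjusted p = 0.366), so AQP1 did not pass the test.

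AQP3, the aquaglyceroporin of basal and intermediate epithelial layers, measured -0.34, -0.34, -0.33 and -0.79 in normals A to D. Its tumor values ran from -2.84 through a median of 0.08 to 2.31. Of the tumors, 22 were above every normal and 2 were below every normal. The limma difference of 0.73 (SE 0.52, 95% interval -0.32 to 1.78, adjusted p = 0.208) did not pass the test.

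SLC14A1, the facilitated urea transporter UT-B that also carries the Kidd blood group on red cells, was low in all 4 normals, at -1.88, -1.50, -1.38 and -2.47. Tumor values ran from -1.39 through a median of 0.10 to 1.04. The lowest tumor lay just inside the normal range and the remaining 28 lay above every normal. SLC14A1 was 1.82 higher in tumors (SE 0.33, 95% interval 1.15 to 2.50, adjusted p = 1.17e-05), a 3.54-fold difference.

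SCNN1B, the beta subunit of ENaC, measured -1.98, -2.21, -2.31 and -1.04 in normals A to D, and from -1.88 through a median of 0.10 to 2.69 in tumors. Of the tumors, 24 lay above every normal and 5 fell within the normal range, which normal D widened at its upper end. SCNN1B was 2.08 higher in tumors (SE 0.63, 95% interval 0.80 to 3.37, adjusted p = 0.00405), a 4.24-fold difference.

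SCNN1G, the gamma subunit of the same channel, measured -0.54, -0.85, -0.65 and -0.24 in normals A to D. Its tumor values ran from -2.93 through a median of 0.35 to 3.21. Tumors lay on both sides of the normals, 18 above every normal and 5 below every normal. The limma difference of 0.95 (SE 0.73, 95% interval -0.54 to 2.44, adjusted p = 0.244) did not pass the test. The alpha subunit, which completes the channel, was not found by its gene symbol and was not analysed here.

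Of the sensory channels, TRPV1, the capsaicin and heat receptor best known from sensory nerves, measured 0.58, 0.26, -0.19 and 1.11 in normals A to D. Its tumor values ran from -2.07 through a median of -0.05 to 1.11. Most tumors, 17 of 29, lay within the normal range and 11 lay below every normal. The limma difference of -0.56 (SE 0.41, 95% interval -1.39 to 0.28, adjusted p = 0.226) did not pass the test.

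TRPV4, the osmotic and stretch-responsive cation channel of the urothelium, measured -1.31, -1.20, -1.42 and -2.10 in normals A to D. Tumor values ran from -0.80 through a median of 0.21 to 1.12. The groups did not overlap. TRPV4 was 1.65 higher in tumors (SE 0.27, 95% interval 1.10 to 2.20, adjusted p = 2.0e-06), a 3.14-fold difference.

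PIEZO1, the force-gated cation channel, measured -1.63, -1.55, -1.78 and -1.96 in normals A to D and from -1.09 through a median of 0.09 to 1.27 in tumors. The groups did not overlap here either. It was 1.78 higher in tumors (SE 0.28, 95% interval 1.20 to 2.35, adjusted p = 1.41e-06), a 3.42-fold difference. TRPV4 and PIEZO1 were the 2 members with every tumor above every normal, a pattern found in 7.63% of all genes tested. An exact two-sided permutation test over samples gave each of them p = 2.44e-05, the smallest that 4 against 29 samples allow.

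**Figure D1:**
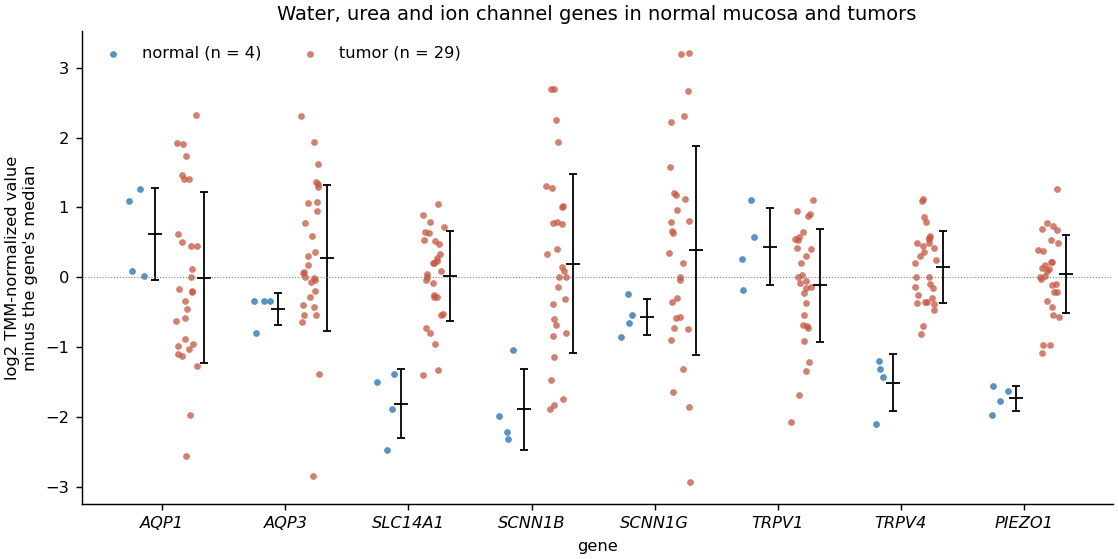
Expression of each channel gene in every sample, as the log2 TMM-normalized value minus the gene's median over all samples. Points are samples (4 normal, 29 tumor) and bars are the mean with its SD. TRPV4 and PIEZO1 have every tumor above every normal, SLC14A1 has 28 tumors above every normal, SCNN1B has 5 tumors within the normal range, and the tumors of AQP1, AQP3, SCNN1G and TRPV1 overlap the normals.

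Members of a family were next compared within each sample, by subtracting one value from the other. These 3 differences were chosen after the values of the members were seen and are given as a description, without a p-value. TRPV4 minus TRPV1 averaged -1.95 ± 0.88 (SD, n = 4) across the normals, against 0.26 ± 1.00 (SD, n = 29) for the tumors. It was higher in 28 of 29 tumors than in every normal, and the means differed by 2.21. SCNN1B minus SCNN1G averaged -1.32 ± 0.36 (SD, n = 4) across the normals, against -0.19 ± 0.91 (SD, n = 29) for the tumors. The means differed by 1.13, with 22 of 29 tumors above every normal. AQP3 minus AQP1 averaged -1.07 ± 0.83 (SD, n = 4) across the normals, against 0.28 ± 1.79 (SD, n = 29) for the tumors. The means differed by 1.35, and 19 tumors lay above every normal. Tumors ran from -4.24 to 3.04, on both sides of the normals (-2.06 to -0.35). Such a difference within a sample is not moved by a shift common to all genes of that sample.

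Markers of several cell types differed between normals and tumors, to be read beside the 10.7% of all genes that were higher and the 45.8% that were lower in tumors. All 6 epithelial markers in the table (EPCAM, CDH1, KRT19, CLDN4, CLDN7 and GRHL2) were higher in tumors, by 1.09 to 2.37, and their mean level ran from -2.58 to -1.29 in normals and from -0.58 to 0.76 in tumors (exact permutation p = 2.44e-05). Of the smooth muscle markers 6 of 6 were lower in tumors, with levels of 4.54 to 6.58 in normals and -1.29 to 3.52 in tumors. Fibroblast markers were lower for 7 of 8, with levels of 2.20 to 2.89 and -2.04 to 2.21. The nerve and Schwann cell list was lower for 6 of 7 (3.68 to 4.10 and -1.43 to 0.98), and the red cell list for 4 of 5 (2.95 to 3.49 and -1.05 to 1.99). The normals, although labelled urothelial, thus had higher levels of muscle, stroma and nerve markers than the tumors. Of 10 endothelial markers MMRN2 alone was called, higher, and the list's level of -0.55 to -0.06 in normals lay inside that of the tumors, -1.42 to 1.76. Of the leukocyte markers 3 of 12, 6 of 9 luminal regulators and 6 of 6 proliferation markers were higher and none of these lists had a lower gene, none of 5 basal and squamous markers was called, and 3 of 7 umbrella cell markers were higher with 1 lower. Normals also gave values above the lowest for 99.3% to 99.8% of olfactory receptor genes, best known from the nasal epithelium, against 3.95% to 91.7% in tumors. Of these genes tested, 99.1% were lower in tumors. Since 4 samples above the lowest value sufficed for a test, such genes could pass through the normals alone. Nothing is read from that share. In bulk RNA, fewer cells of a type and less RNA per cell cannot be told apart.

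When every sample was centred on its mean epithelial marker level, a scaling chosen after the data were seen, the 4 rises were gone. The difference became 0.03 for SLC14A1 (SE 0.32, adjusted p = 0.938), 0.29 for SCNN1B (SE 0.67, adjusted p = 0.683), -0.15 for TRPV4 (SE 0.27, adjusted p = 0.607) and -0.02 for PIEZO1 (SE 0.34, adjusted p = 0.952). This scaling lowers the difference of every gene by the same 1.80, and the values of these 4 then lay within their SE of 0. AQP3 stood at -1.07 (adjusted p = 0.0522) and SCNN1G at -0.84 (adjusted p = 0.286). On this scale TRPV1 was lower in tumors, with a difference of -2.35 (SE 0.49, adjusted p = 5.34e-05), and so was AQP1, with -2.42 (SE 0.71, adjusted p = 0.00204). Both counts need the background of that scale, on which 82.2% of genes tested were lower and 0.286% higher.

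**Figure D2:**
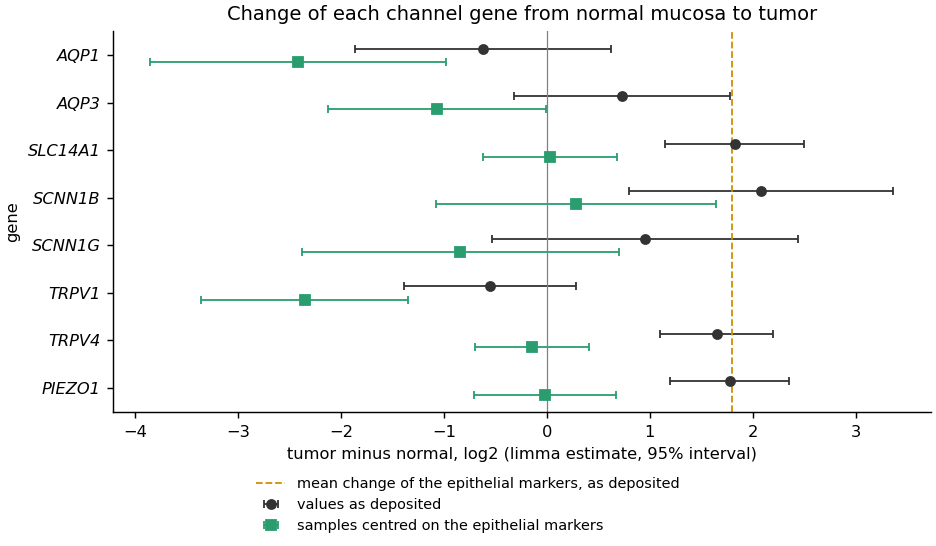
Tumor minus normal difference of each channel gene (limma estimate with its 95% interval, log2). Circles are the values as deposited and squares are the same fit after each sample was centred on its epithelial markers. The dashed line marks the mean rise of the epithelial markers, 1.80. SLC14A1, SCNN1B, TRPV4 and PIEZO1 lie near that line as deposited and near 0 after centring.

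The related genes of these pathways, from lists of 80 genes of which 57 were found by gene symbol, were read from the same fit. Of the 57 tested, 13 were higher and 23 lower in tumors, and 21 were not called, with a median change of -0.33. Over all genes tested, 10.7% were higher and 45.8% lower, with a median of -0.84. Of the 23 that fell, 5 were at their lowest value in most tumors, so that the fitted size of their fall is limited by that floor. A gene at its lowest value in only some tumors is limited in the same way, and the number of such tumors is given beside the value.

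Among the other aquaporins none of 4 rose and 3 fell, beside 45.8% lower over all genes, with differences of -6.32 for AQP4, the water channel of glia and muscle (lowest value in 20 tumors), -4.22 for MIP, that of the lens (12 tumors), and -3.84 for AQP8 (18 tumors). In the urea and osmotic list, the taurine transporter SLC6A6, which cells use to take up an osmolyte, rose by 1.31, and the renal urea transporter SLC14A2 fell by 3.98 on the log2 scale (lowest value in 4 tumors). As deposited, the 2 urea transporters thus moved in opposite directions, SLC14A2 being among the 45.8% of all genes that were lower. After the epithelial centring SLC14A1 stood at 0.03 (adjusted p = 0.938). NFAT5, the transcription factor of the osmotic response, stood at 0.25 (adjusted p = 0.351) and did not pass the test.

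Around ENaC, ST14, the protease matriptase that activates the channel, rose by 1.62, and NEDD4L, the ubiquitin ligase that removes it from the membrane, rose by 1.02. The delta subunit gene SCNN1D fell by 1.72 on the log2 scale (lowest value in 3 tumors). PRSS8, the channel-activating protease prostasin, was listed at its lowest value in all 29 tumors and in none of the normals, so it passed the filter through the normals alone and nothing is read from its call, which is 1 of the 23. SGK1, the kinase that restrains NEDD4L, stood at 0.75 (adjusted p = 0.00594), under 2-fold.

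Of 13 TRP and acid-sensing channels 8 fell, beside 45.8% of all genes, among them the cold receptor TRPM8 at -5.67 (lowest value in 11 tumors) and the acid-sensing ASIC2, a channel of neurons, at -4.34 (12 tumors). The sodium-permeable channel TRPM4 was the only one that rose (1.36). Of 14 mechanosensitive and purinergic channels 7 fell, close to the 45.8% of all genes, with TMC1 at -6.48 (lowest value in 16 tumors), TMC5 at -4.26 (5 tumors) and P2RX1, the ATP-gated channel of smooth muscle, at -3.72. The ATP receptor P2RX7 (1.74) and the osmosensitive TMEM63B (1.24) and TMEM63A (1.19) rose. PIEZO2, the paralog of PIEZO1 known from sensory neurons, stood at -2.54 (adjusted p = 0.00568), opposite to PIEZO1 on the scale as deposited. After the epithelial centring PIEZO1 stood at -0.02 (adjusted p = 0.952).

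Potassium and chloride channels and pumps were the list with the most rises, 6 of 15, with 2 lower, beside 10.7% higher and 45.8% lower over all genes. Among them were the background potassium channel KCNK1 (2.45) and ATP1B1 (1.93), the beta subunit of the sodium pump, which drives sodium out across the basolateral membrane. KCNMA1 and KCNMB1, the 2 parts of the large-conductance potassium channel of smooth muscle, fell by 5.17 and 5.00 on the log2 scale. After centring on the epithelial markers 0 of the 57 related genes were higher and 38 were lower, on a scale where 82.2% of all genes were lower and 0.286% higher. The part of cell content in the differences of these genes was not tested.

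Among the 29 tumors, the members differed widely in spread. SCNN1G had an SD of 1.49, at percentile 92.9 of genes tested that vary over the tumors, and its highest tumor was 70.7-fold above its lowest. SCNN1B had an SD of 1.27, AQP1 of 1.23 and AQP3 of 1.05. At the other end PIEZO1 (SD 0.56) and TRPV4 (SD 0.52, percentile 37.2) spanned 5.10-fold and 3.79-fold. The members that separated the groups without overlap were those with the narrowest range over tumors, which by itself makes overlap less likely.

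Co-variation was measured over the 29 tumors for all 28 pairs of members, each with a two-sided permutation p from 100000 resamples, of which 1e-05 is the smallest, adjusted over the 28. In all, 5 pairs passed. The strongest was SCNN1B with SCNN1G, the 2 ENaC subunits (r = 0.795, p = 1e-05, adjusted p = 0.00028). Spearman's rho was 0.743 (p = 2e-05, adjusted p = 0.00056), and leaving out the 2 tumors with the most extreme SCNN1B gave an r of 0.740. Each of the pair was the other's most similar gene among 12033 genes with a symbol. In the RefSeq gene table both lie on one chromosome with 1 non-coding gene and no protein-coding gene between them.

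AQP3 ran opposite to both subunits. Its r was -0.595 with SCNN1G (p = 0.00063, adjusted p = 0.00588, rho = -0.635 with p = 0.00028) and -0.570 without the 2 farthest tumors. With SCNN1B r was -0.584 (p = 0.00062, adjusted p = 0.00588, rho = -0.663 with p = 0.00011) and -0.661 without those tumors. Both held with Spearman's rho after adjustment, at 0.00261 and 0.00154.

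AQP3 rose and fell with the urea transporter SLC14A1 (r = 0.585, p = 0.00085, adjusted p = 0.00595, rho = 0.624 with p = 0.00054 and adjusted p = 0.00378, and r = 0.541 without the 2 farthest tumors). SLC14A1 in turn ran opposite to SCNN1B (r = -0.529, p = 0.00308, adjusted p = 0.0172, rho = -0.503 with p = 0.00589 and adjusted p = 0.0330). That last relation was -0.494 without the 2 farthest tumors, a value of similar size that no longer passed (adjusted p = 0.0512). SLC14A1 with SCNN1G was -0.392 and did not pass (adjusted p = 0.158).

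The tumors at the ends of AQP3 and SCNN1G ran in opposite directions in these genes. Tumor 22 had the lowest AQP3 (-2.84) with SCNN1G at 2.22 and SCNN1B at 1.02. Tumor 21 had the lowest SCNN1G (-2.93), with SCNN1B at -1.74 and AQP3 at 1.06. Tumor 16 had the highest SCNN1G (3.21), with SCNN1B at 1.94, AQP3 at -0.42 and SLC14A1 at -1.32. Tumor 11, with the highest AQP3 (2.31), had SCNN1G at -0.89. The tumors at the ends of SLC14A1 did not follow this. Tumor 19, with the highest SLC14A1 (1.04) and AQP3 at 0.77, had SCNN1B at 0.10 and SCNN1G at 0.20. Tumor 20, with the lowest SLC14A1 (-1.39), had SCNN1B at 0.76 but SCNN1G at -0.74.

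The remaining members kept apart. TRPV4 and PIEZO1, both higher in all tumors, had an r of 0.385 with each other (adjusted p = 0.158). TRPV1 and TRPV4 had an r of -0.0973 and AQP1 and AQP3 one of -0.227 (adjusted p = 0.783 and 0.417). No pair with TRPV1, TRPV4, PIEZO1 or AQP1 passed.

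**Figure D3:**
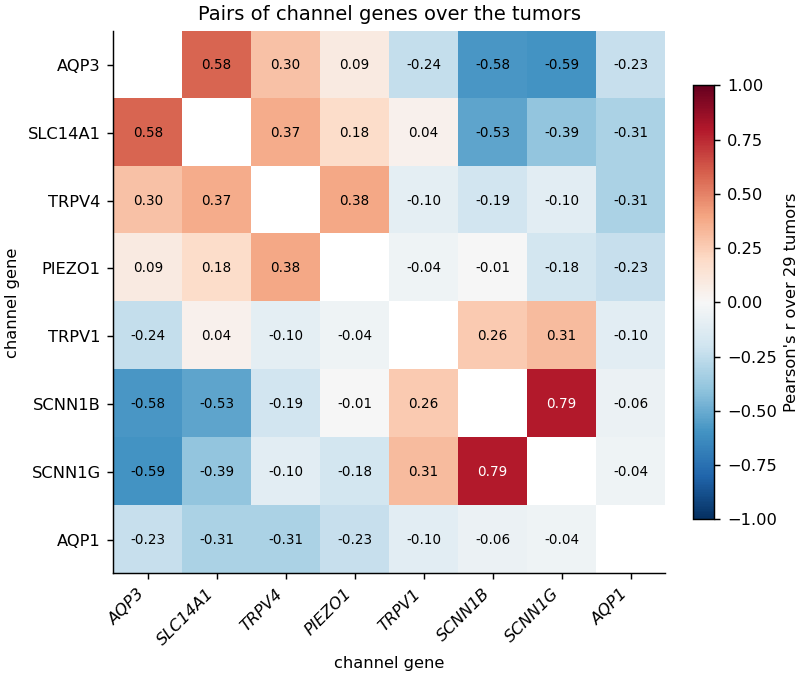
Pearson's r between each pair of channel genes over the 29 tumors. Red is positive and blue negative. SCNN1B and SCNN1G form a positive pair, AQP3 and SLC14A1 another, and the cells between these pairs are negative.

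Each member was also compared with 12 scores over the tumors, the mean z of each marker list and the share of olfactory receptor genes above their lowest value, giving 96 relations. AQP1 passed with 2 of them. Its r was 0.759 with the endothelial score (p = 2e-05, adjusted p = 0.00144, rho = 0.788 with p = 1e-05 and adjusted p = 0.00096) and 0.717 without the 2 farthest tumors. With the fibroblast score r was 0.692 (p = 3e-05, adjusted p = 0.00144, rho = 0.736 with p = 2e-05 and adjusted p = 0.00096) and 0.614 without them. The smooth muscle score gave AQP1 a rho of 0.718 (adjusted p = 0.0016) and an r of 0.487 (adjusted p = 0.0715), which was 0.766 (adjusted p = 0.00192) without the 2 tumors with the most extreme smooth muscle score. AQP1 thus varied among tumors with the level of vessel and stroma markers.

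No member other than AQP1 passed with any score. Short of passing, AQP1 had an r of 0.556 with leukocytes (adjusted p = 0.0618) and of -0.515 with epithelial markers (adjusted p = 0.0636). The nearest of the others were SLC14A1 with the luminal regulators (r = 0.535, adjusted p = 0.0636), SLC14A1 with leukocytes (r = -0.510, adjusted p = 0.0636), and TRPV4 with nerve and Schwann cells (r = -0.521, adjusted p = 0.0636). Next, each with an adjusted p of 0.0869, came SCNN1G with basal and squamous markers (r = -0.475), SCNN1G with umbrella cell markers (r = 0.471) and TRPV4 with smooth muscle (r = -0.467). Without the 2 tumors with the most extreme score, r was -0.229 for TRPV4 with smooth muscle and -0.314 for SLC14A1 with leukocytes. It was 0.369 for SCNN1G with umbrella cell markers, and the other relations listed here moved less. Of the 28 pairs, the same 5 among AQP3, SLC14A1, SCNN1B and SCNN1G passed after the epithelial score was regressed out of the members.

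**Figure D4:**
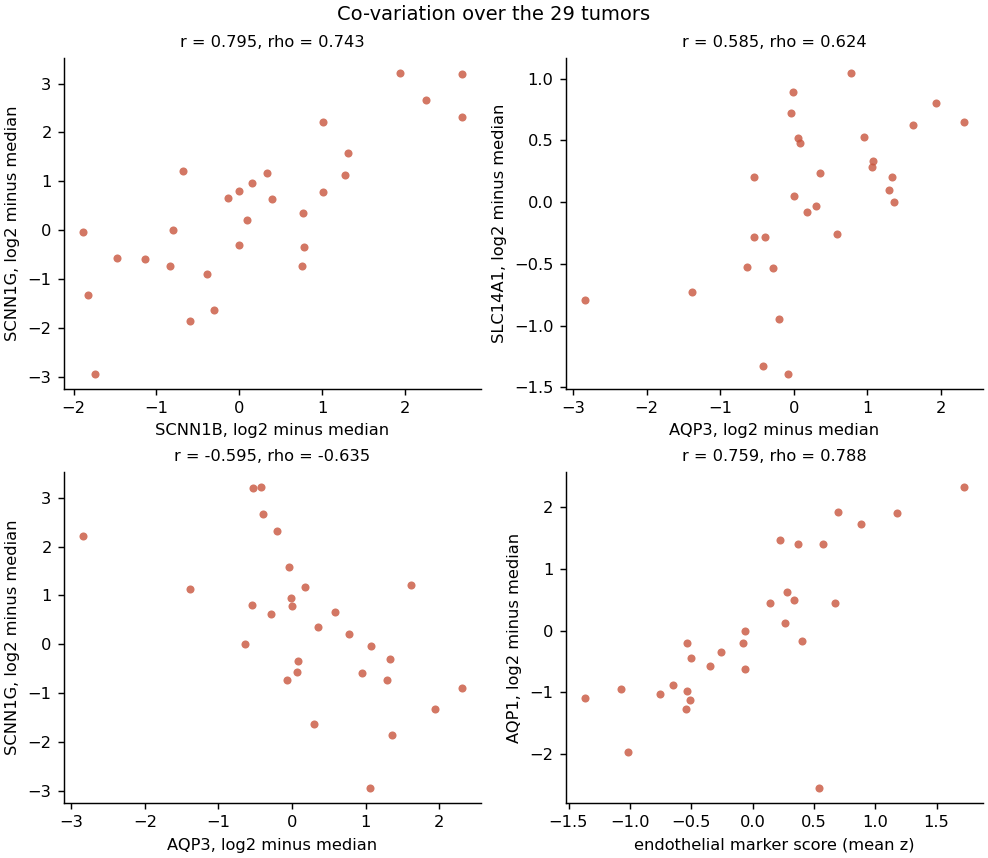
Relations over the 29 tumors, each point a tumor. Axes are log2 values minus the gene's median, and the last panel has the endothelial marker score (mean z) on its x axis. SCNN1G rises with SCNN1B (r = 0.795), SLC14A1 with AQP3 (r = 0.585) and AQP1 with the endothelial score (r = 0.759), while SCNN1G falls as AQP3 rises (r = -0.595).

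The genes most like each member over the 29 tumors were ranked by Pearson's r, as a description without a test. All points share the same libraries. For AQP1 they were ECSCR (0.868), CD34 (0.867), FAM167B (0.861), VIM (0.853) and PALMD (0.852), of which ECSCR and CD34 are known from endothelium and VIM from mesenchymal cells, and the lowest were ROMO1 (-0.634) and ARF6 (-0.631).

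Among the highest for AQP3 were MUM1 (0.729), RDH12 (0.708), PERM1 (0.702) and TSKU (0.689), and the lowest were CNTN4 (-0.710) and NUDT19 (-0.704). SLC14A1 was followed by PLCD3 (0.720), ALS2CL (0.681), CHURC1-FNTB (0.667), TNPO2 (0.655) and NYNRIN (0.652), with NUDT19 (-0.734) and SLC46A2 (-0.727) at the other end. NUDT19 was thus among the 2 lowest for both genes.

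For SCNN1B the highest after SCNN1G were LRIF1 (0.717), PNMT (0.688), MFAP3L (0.670) and LEAP2 (0.667), and the lowest PLCD3 (-0.724) and TUBB6 (-0.709). PLCD3, a phospholipase C, was highest for SLC14A1 and lowest for SCNN1B. For SCNN1G, after SCNN1B, they were MFAP3L (0.702), BICC1 (0.697), LEAP2 (0.670) and CHGA (0.665), with DOK7 (-0.745) and TAS1R2 (-0.684) lowest. MFAP3L and LEAP2 stood among the 5 highest for both subunits.

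TRPV1 was most like C9orf131 (0.685), TOMM20L (0.676), KRT10 (0.660), GLRA1 (0.660) and MSANTD1 (0.656), and least like TMC6 (-0.689) and QARS (-0.688). TRPV4 was most like HDGF (0.675), VSIG10 (0.650), SPSB3 (0.649), TNFAIP2 (0.642) and CARHSP1 (0.639), and least like COCH (-0.761) and CSMD3 (-0.700). PIEZO1 was most like TTLL10 (0.739), RGL3 (0.714), KCNJ12 (0.711), MTCL1 (0.708) and CELSR2 (0.704), and least like MFSD7 (-0.716) and SULT1C4 (-0.703). These 3 lists share no gene with one another.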

How the data were processed

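The authors aligned paired-end reads to CanFam3.1 with COBWeb in Strand NGS 3.1, quantified annotated genes, and deposited log2 values, TMM-normalized and DESeq-normalized in separate tables, each gene minus its median over the samples. These are not counts, so total depth per sample is unknown and no counting interval is given. A last incomplete line was left out. Groups came from the labels, and 1 sample was 1 dog.

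Genes that exceeded a lowest value shared by several samples in fewer than 4 samples were not tested. For tumor against normal, limma 3.58.1 (R 4.3.3) was run with lmFit and eBayes with trend, and p-values were adjusted by Benjamini-Hochberg over all genes tested. Correlations used Python 3.11.15, numpy 2.4.6, pandas 2.3.3 and scipy 1.17.1, and figures matplotlib 3.10.9. Tested on simulated data of 24471 genes for tumor against normal, 92 of 100 genes changed by 3 and 52 of 100 changed by 1.5 on the log2 scale were recovered, with 9 unchanged genes called. The simulation changed far fewer genes than the 13821 called in the data. Its shares are therefore not the power of the real comparison.

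The members and lists were chosen with earlier results of these data known. Named genes were the members, for each the 5 with the highest and 2 with the lowest r, and up to 3 called genes with the largest rise and fall per related list, of which 3 are not reported here. Genes named beyond this rule (NFAT5, SGK1, PIEZO2 and markers) were chosen after their values were seen. Alternatives were the other table deposited, other filters, no trend, group weights, each normal left out, other centrings, Spearman's rho, covariates regressed out and tumors left out. RefSeq names matched 8 of 8 members.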

Additional observations from a re-analysis of the deposited data

Results flagged for a closer look

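In AQP3 the value of normal D, -0.79, lay far below the other 3 normals, which sat between -0.34 and -0.33 (Dixon's test for 4 samples). Chance alone marks about 1 in 20 groups in this way, and the tumors, being more than 10, were not tested so. Without normal D the AQP3 difference between tumors and normals stayed above the adjusted p of 0.05.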

How the results depend on the processing

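The calls of SLC14A1, SCNN1B, TRPV4 and PIEZO1, and their number of 4, were kept in the DESeq-normalized table, with other filters, with samples centred on genes whose median lay above the lowest value, without the trend, with a weight per group, by the unadjusted exact permutation test, and with each normal left out. Over the alternatives other than the epithelial centring, differences ran from 1.53 to 1.97 for SLC14A1, 1.78 to 2.36 for SCNN1B (highest adjusted p 0.0191), 1.35 to 1.75 for TRPV4 and 1.48 to 1.84 for PIEZO1. Centring samples on the epithelial markers, added after the data were seen, ended all 4 calls and left 2 members called, AQP1 and TRPV1, both lower. It lowers every difference by 1.80, which put AQP3 at -1.07, SCNN1G at -0.84, TRPV4 at -0.15 and PIEZO1 at -0.021, none of them called. Leaving out normal D moved 2 uncalled differences by over 1.5 times, TRPV1 from -0.56 to -0.33 and AQP1 from -0.62 to -0.40. The DESeq-normalized table moved AQP3 from 0.73 to 0.43 and TRPV1 from -0.56 to -0.85 (adjusted p = 0.0676), both uncalled there too. Testing only genes above their lowest value in at least 17 samples, 13 related channel genes were higher and 19 lower, beside 2595 higher and 5543 lower of 18418 genes. The number of passing pairs of members was 5, or 4 without the 2 farthest tumors, where SLC14A1 with SCNN1B (-0.494) no longer passed. Relations of members with scores numbered 3 with Spearman's rho and without the 2 farthest tumors, AQP1 with smooth muscle being added. With the olfactory receptor share regressed out, 6 relations of members with scores passed in place of 2, adding TRPV4 with nerve (-0.584), AQP1 with leukocyte (0.610) and epithelial (-0.544) and SLC14A1 with luminal scores (0.540), and the cause was not tested. A planned change of pseudocount was not run, since the values were already log2. No paired analysis was possible because normals and tumors came from different dogs and share no replicate label. With 4 normals, some intervals were wide, and that of SCNN1G, -0.54 to 2.44, includes no change as well as a 2-fold change.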
